A study of Mus musculus with 20 samples.

Results

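Endothelial and endocardial identity genes were examined in whole hearts of mouse embryos at stage E13.5, before septation of the chambers is complete, measured by RNA sequencing (RNAseq). The set is a list of names whose rule uses no measured value, drawn up with earlier results of these data known. It holds 10 of the 48795 genes of the deposited table: Pecam1, Cdh5, Kdr, Flt1, Tek, Tie1, Emcn, Npr3, Plvap and Clec14a. The 20 hearts fell into 4 groups of 5, all on a C57BL/6J background: Dp3Tyb, which carries the duplication Dp(16Mir802-Zbtb21)3TybEmcf, Ts1Rhr, which carries the shorter duplication Dp(16Cbr1-Fam3b)1Rhr, and the wild-type (WT) littermates of each strain. Both duplications give 3 copies of part of the mouse chromosome 16 region that corresponds to human chromosome 21, and the labels name no other allele and no agent. All 5 Dp3Tyb hearts were labelled with heart defects. The study describes Ts1Rhr as free of such defects, while the labels of Ts1Rhr replicates 1 and 2 name them. Comparisons were made between each strain and its littermates, with the share of reads from mitochondrially encoded genes (mitochondrial share, in percent) as a covariate. A strain with its WT group is called a cohort.

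Endothelial cells line blood vessels, and the endocardium is the endothelium that lines the heart chambers and gives rise to valve mesenchyme. Vascular endothelial growth factor (VEGF) signals to these cells through the receptors Kdr and Flt1, and the angiopoietins signal through Tek, with Tie1 as its partner. Adhesion proteins such as Pecam1 and Cdh5 hold the cells together, and transcription factors of the ETS family, Erg and Ets2 among them, bind a GGAA core in many endothelial promoters. A whole heart holds these cells among many cardiomyocytes, so that a lower value of such a gene can come from fewer endothelial cells or from less RNA per cell, which cannot be told apart here.

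Libraries held between 6.60 and 19.6 M reads (M, mega). Values are reads divided by a library factor, hereafter normalised values. The mitochondrial share ran from 4.85% to 19.5% and was over 10% in 7 libraries: WT of Dp3Tyb replicate 5, Dp3Tyb replicate 5, WT of Ts1Rhr replicates 1, 2 and 4, and Ts1Rhr replicates 1 and 2. A score of 12 lung and foregut epithelium markers (their mean log2 value as a difference from the mean over all hearts) split the hearts as well. It lay between -2.39 and -2.06 in 5 libraries, namely WT of Dp3Tyb replicates 2, 4 and 5 and Ts1Rhr replicates 1 and 3, and between -0.32 and 1.69 in the 15 others. The comparisons between genotypes were also fitted without either set of libraries. The 10 genes were well covered, the lowest being Clec14a with 245 reads in 1 WT of Dp3Tyb library.

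Promoters of 4 genes are shown because the duplicated segment holds the ETS factors Erg and Ets2, which are described with the other endothelial genes. The letters are the 250 bases before a RefSeq transcript start (GRCm38.p6), 5′ to 3′ along the gene, with the ETS core motifs AGGAAG and CGGAAG, searched on both strands, in capitals. The Tie1 window is chr4:118489850-118490099 on the minus strand, the Emcn window is chr3:137340828-137341077 on the plus strand, the Flt1 window is chr5:147726012-147726261 on the minus strand and the Clec14a window is chr12:58269259-58269508 on the minus strand.
Tie1: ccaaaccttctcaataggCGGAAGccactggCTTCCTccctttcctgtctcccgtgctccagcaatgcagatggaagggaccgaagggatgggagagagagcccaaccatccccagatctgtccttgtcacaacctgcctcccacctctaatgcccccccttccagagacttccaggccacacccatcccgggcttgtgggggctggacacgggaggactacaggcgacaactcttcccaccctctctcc
Emcn: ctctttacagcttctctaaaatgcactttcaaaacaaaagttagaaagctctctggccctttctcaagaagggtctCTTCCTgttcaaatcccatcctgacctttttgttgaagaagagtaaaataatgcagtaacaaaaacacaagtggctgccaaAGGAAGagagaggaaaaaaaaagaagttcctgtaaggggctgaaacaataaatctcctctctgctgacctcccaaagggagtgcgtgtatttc
Flt1: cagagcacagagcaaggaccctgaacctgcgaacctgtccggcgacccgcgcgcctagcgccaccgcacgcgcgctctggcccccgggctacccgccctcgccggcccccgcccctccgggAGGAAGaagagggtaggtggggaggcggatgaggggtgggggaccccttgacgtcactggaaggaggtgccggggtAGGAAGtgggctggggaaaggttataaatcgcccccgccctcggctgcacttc
Clec14a: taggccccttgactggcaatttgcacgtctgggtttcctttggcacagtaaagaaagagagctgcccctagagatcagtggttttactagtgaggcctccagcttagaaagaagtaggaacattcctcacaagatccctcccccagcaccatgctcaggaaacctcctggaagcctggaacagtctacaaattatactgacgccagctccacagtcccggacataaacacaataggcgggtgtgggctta
The Tie1 window held 1 match of each motif, and the windows of Emcn and Flt1 held 2 matches of AGGAAG each. RefSeq promoters were matched for 7 of the 10 genes (Kdr, Flt1, Tek, Tie1, Emcn, Npr3 and Clec14a), of which 3 held a match, while 39.2% of all 32851 promoter windows of this length held one. A match is only a description of these letters.

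Per kilobase of the canonical transcript, the genes differed widely in level. The order below holds for this length only. The canonical transcript of Npr3 has 2944 bases and all its annotated exons together 12430. These lengths are 3678 and 10002 for Pecam1, and 4021 and 4381 for Cdh5. In WT of Dp3Tyb hearts Npr3 was highest, at 1168 ± 147 normalised values per kilobase (SD, n = 5), followed by Cdh5 at 1069 ± 166, and the ranges of these neighbours overlapped. Pecam1 came next at 664.7 ± 57.9, separate from Cdh5 above it and from Plvap below it. Plvap, Tek, Tie1, Kdr and Emcn followed between 529.1 and 377.7 per kilobase, each overlapping its neighbour. Flt1, at 200.3 ± 25.8, and Clec14a, at 138.6 ± 13.04, stood apart from the genes above them. In WT of Ts1Rhr hearts the order was the same except that Emcn (405.6 ± 101) stood before Kdr (388.9 ± 34.96), whose ranges overlapped. In Dp3Tyb and Ts1Rhr hearts Cdh5 came first, at 1072 ± 150.3 and 1174 ± 114, and Npr3 next, at 1033 ± 119.5 and 1052 ± 99.4, again with overlapping ranges, and the other genes followed in the order of WT of Dp3Tyb. Npr3 is the natriuretic peptide clearance receptor and a marker of the endocardium, and Cdh5 is the adhesion protein of endothelial junctions.

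No gene of the set passed the test in either strain. In limma with Benjamini-Hochberg adjustment over all genes, 0 of 10 had an adjusted p under 0.05 in Dp3Tyb, where 0.305% of 14763 genes did, and 0 of 10 in Ts1Rhr, where 0.168% of 14867 did. At an unadjusted p under 0.05 there were 2 of 10 in Dp3Tyb, Npr3 and Clec14a, where 11% of all genes passed, and 2 of 10 in Ts1Rhr, Plvap and Clec14a, where 7.53% passed. With edgeR on whole reads 0 of 10 passed the adjusted threshold in either strain, and with DESeq2 0 in Dp3Tyb and 1 in Ts1Rhr, Clec14a. The median log2 difference (mutant minus WT, at equal mitochondrial share) over the 10 genes was 0.029 in Dp3Tyb, with 6 genes higher and 4 lower, and 0.092 in Ts1Rhr, with 8 higher and 2 lower, while the median of all genes was -0.0033 in each. Leaving out 1 heart, the median ran from 0.0077 (without WT of Dp3Tyb replicate 1) to 0.068 (without Dp3Tyb replicate 4, with 8 higher and 2 lower) in Dp3Tyb, where it moved by over 1.5 times without WT replicate 1, 2, 3 or 4 or Dp3Tyb replicate 1, 3 or 4, and from 0.074 to 0.11 in Ts1Rhr. With the lung and foregut score added to the fit, the order of the strains turned. The median was then 0.099 in Dp3Tyb, with 9 higher and 1 lower, and 0.043 in Ts1Rhr, with 6 higher and 4 lower. In that fit limma again called 0 of 10 in either strain (0.264% and 0.168% of all genes). At an unadjusted p under 0.05 there were 5 of 10 in Dp3Tyb, Kdr, Tek, Tie1, Plvap and Clec14a (9.33% of all genes), and 1 in Ts1Rhr, Clec14a (7.25%). Without the 5 hearts of low lung and foregut score, an alternative chosen after the values were seen that leaves 2 WT of Dp3Tyb and 3 Ts1Rhr hearts, limma called 0 of 10 in either strain (0.11% and 0.143% of all genes). At an unadjusted p under 0.05 there were then 2 in Dp3Tyb, Kdr and Clec14a (4.58% of all genes), and 1 in Ts1Rhr, Clec14a (7.05%), and the medians were 0.084 and 0.055.

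**Figure D1:**
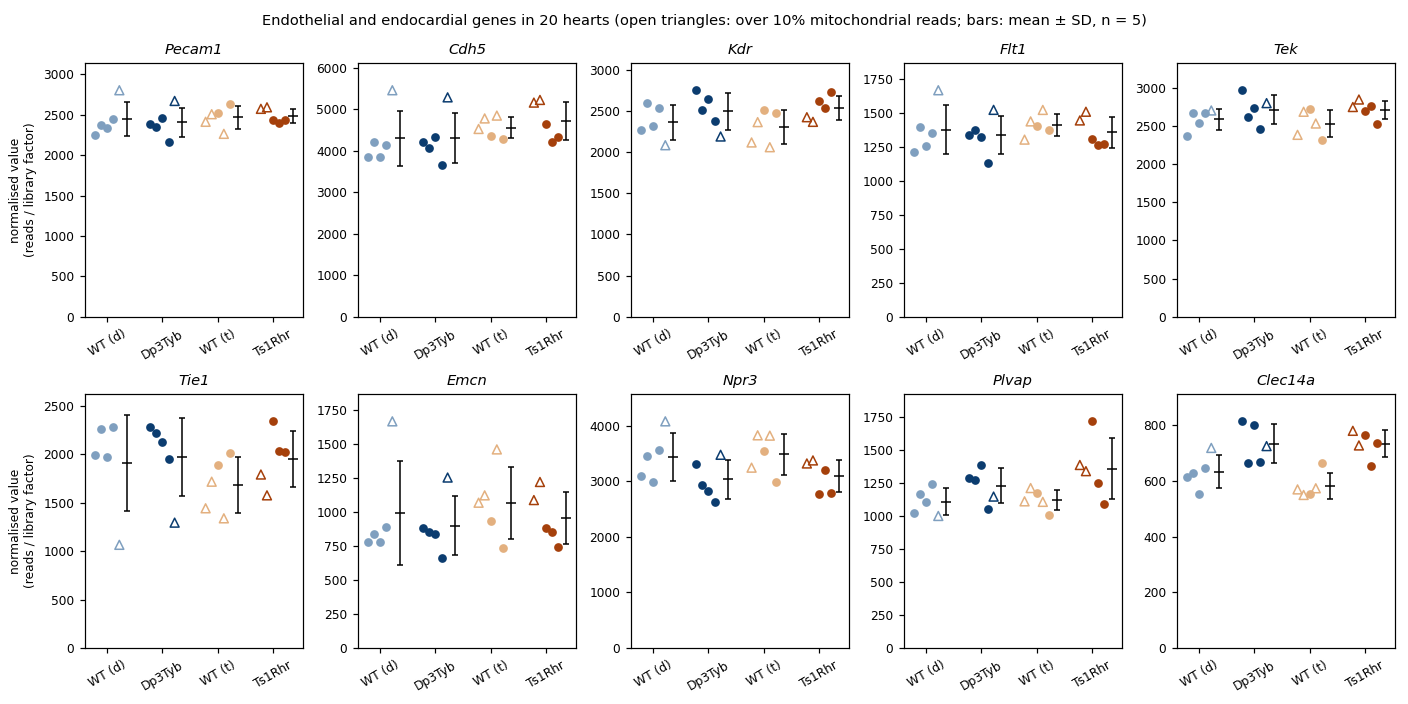
Normalised value (vertical axes, from 0) of each of the 10 genes in every heart of the 4 groups, with WT (d) and WT (t) for the WT littermates of Dp3Tyb and Ts1Rhr. Points are libraries, open triangles those with over 10% mitochondrial reads, and bars the mean ± SD of 5 hearts. Emcn is high and Tie1 low in the triangles, and all 5 hearts of either mutant group lie above the mean of their WT group for Clec14a.

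Among the junctional proteins, Pecam1, an adhesion molecule between endothelial cells, was level across genotypes within its error. Its values ran from 2254 to 2804 in WT of Dp3Tyb and from 2168 to 2671 in Dp3Tyb, and the log2 difference was -0.014 ± 0.041 (SE, n = 5 per group). In the Ts1Rhr cohort they ran from 2264 to 2630 in WT and from 2403 to 2593 in Ts1Rhr, with a log2 difference of 0.0025 ± 0.050. The 95% confidence intervals of the log2 difference were -0.10 to 0.072 and -0.10 to 0.11. For Cdh5, vascular endothelial cadherin, the log2 difference was 0.018 ± 0.047 in Dp3Tyb and 0.093 ± 0.049 in Ts1Rhr, and the groups overlapped in both cohorts.

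Of the VEGF receptors, Kdr transmits most of the VEGF signal and Flt1 binds VEGF tightly with weaker signalling. Kdr averaged 2360 ± 209 normalised values in WT of Dp3Tyb and 2493 ± 221 in Dp3Tyb, and 2304 ± 207 in WT of Ts1Rhr and 2534 ± 148 in Ts1Rhr (SD, n = 5). Its log2 difference at equal mitochondrial share was 0.072 ± 0.052 in Dp3Tyb and 0.090 ± 0.045 in Ts1Rhr, and limma's adjusted p was 0.622 and 0.709. Flt1 averaged 1381 ± 178 in WT of Dp3Tyb against 1342 ± 139 in Dp3Tyb, and its log2 difference was -0.029 ± 0.054. In Ts1Rhr the Flt1 difference was -0.016 ± 0.052. Both receptors had overlapping groups in both cohorts.

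Tek is the angiopoietin receptor, and its log2 difference was 0.070 ± 0.051 in Dp3Tyb and 0.12 ± 0.056 in Ts1Rhr. Of the Ts1Rhr hearts 4 of 5 lay above the mean of their WT group for Tek, while their highest WT heart, at 2724, lay above 2 of them. Tie1, an orphan receptor that pairs with Tek, varied widely between libraries. Its normalised values, in the order of replicates 1 to 5 here and below, were 1997, 2262, 1975, 2281 and 1066 in WT of Dp3Tyb and 2280, 2224, 2133, 1951 and 1295 in Dp3Tyb. Replicate 5 of each group was lowest, and both have over 10% mitochondrial reads. WT of Ts1Rhr hearts had Tie1 values of 1444, 1719, 1896, 1340 and 2018, and Ts1Rhr hearts had 1793, 1577, 2343, 2038 and 2028. The 3 lowest WT values there belong to the 3 WT libraries with over 10% mitochondrial reads. At equal mitochondrial share the log2 difference was 0.040 ± 0.060 in Dp3Tyb and 0.11 ± 0.055 in Ts1Rhr.

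Emcn, the mucin-like surface protein endomucin of venous and endocardial endothelium, had its highest values where Tie1 was low. Emcn stood at 780, 841, 777, 888 and 1665 in WT of Dp3Tyb and at 880, 851, 838, 662 and 1252 in Dp3Tyb. The highest heart of each group was again replicate 5. WT of Ts1Rhr hearts had Emcn values of 1067, 1121, 934, 1458 and 737, and Ts1Rhr hearts had 1086, 1219, 883, 855 and 745. The groups overlapped in both cohorts, and the log2 difference was -0.080 ± 0.065 in Dp3Tyb and 0.018 ± 0.066 in Ts1Rhr. Without the mitochondrial term the standard errors grew, and the Ts1Rhr value turned to -0.14.

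Npr3 was lower on average in both mutants. Npr3 stood at 3099, 3454, 2992, 3570 and 4084 in WT of Dp3Tyb and at 3324, 2934, 2832, 2633 and 3481 in Dp3Tyb. In Dp3Tyb 3 of 5 hearts lay below the lowest WT heart and the rest overlapped with WT. The log2 difference was -0.17 ± 0.063 (limma, adjusted p = 0.358). WT of Ts1Rhr hearts had Npr3 values of 3249, 3832, 3543, 3826 and 2985, and Ts1Rhr hearts had 3325, 3379, 2778, 3213 and 2788. None of the Ts1Rhr hearts reached the WT mean, 2 lay below the lowest WT heart, and the log2 difference was -0.12 ± 0.064 (limma adjusted p = 0.738). With the lung and foregut score added to the fit the difference was -0.078 in Dp3Tyb and -0.12 in Ts1Rhr, and without the 5 hearts of low score it was -0.079 ± 0.082 and -0.11 ± 0.074.

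Plvap, which forms the diaphragms of endothelial fenestrae and caveolae, was higher on average in both mutants. Plvap stood at 1026, 1169, 1107, 1244 and 1001 in WT of Dp3Tyb and at 1286, 1276, 1391, 1051 and 1148 in Dp3Tyb. In that cohort 3 of 5 Dp3Tyb hearts lay above the highest WT heart, and the log2 difference was 0.14 ± 0.073 (limma adjusted p = 0.490). WT of Ts1Rhr hearts had Plvap values of 1112, 1213, 1176, 1108 and 1008, and Ts1Rhr hearts had 1388, 1341, 1719, 1254 and 1089. In Ts1Rhr 4 of 5 hearts lay above the highest WT heart, and the log2 difference was 0.27 ± 0.11 (limma, adjusted p = 0.625). The highest Ts1Rhr value, 1719 in replicate 3, came from a heart of low lung and foregut score. With that score in the fit the difference was 0.11 in Ts1Rhr and 0.23 in Dp3Tyb (limma, adjusted p = 0.797 and 0.210), and without the 5 hearts of low score it was 0.15 ± 0.073 and 0.22 ± 0.10.

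Clec14a, a lectin-like endothelial surface glycoprotein, had the largest difference of the set in both strains. Clec14a stood at 616, 630, 554, 648 and 719 in WT of Dp3Tyb and at 815, 664, 800, 668 and 726 in Dp3Tyb. All 5 Dp3Tyb hearts were above the WT mean and 3 were above the highest WT heart. WT of Ts1Rhr hearts had Clec14a values of 570, 550, 555, 574 and 665, and Ts1Rhr hearts had 781, 728, 766, 655 and 737. All 5 Ts1Rhr hearts were above the WT mean, and 4 lay above the highest WT heart, replicate 5 at 665. The log2 difference was 0.22 ± 0.070 in Dp3Tyb (95% confidence interval 0.067 to 0.37, limma, adjusted p = 0.293) and 0.33 ± 0.068 in Ts1Rhr (0.18 to 0.47, adjusted p = 0.126). At equal mitochondrial share the Dp3Tyb values ran from 675 to 828 and those of WT from 565 to 661, so that the groups did not overlap. Of all genes 1.73% were likewise higher without overlap in Dp3Tyb and 1.77% lower. For Clec14a in Ts1Rhr, and for the other 9 genes in both cohorts, the groups overlapped, where 1.36% of all genes were higher and 1.39% lower without overlap in Ts1Rhr. On the values as deposited all 10 genes overlapped in both cohorts, and of all genes 0.501% were higher and 0.474% lower without overlap in Dp3Tyb, and 0.619% and 0.498% in Ts1Rhr.

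The Clec14a call in Ts1Rhr depended on the fit. Its adjusted p was 0.0182 with limma array weights, 0.0260 with DESeq2 on whole reads, 0.0438 with DESeq2 without the mitochondrial term and 0.0281 without WT of Ts1Rhr replicate 5, where the log2 difference was 0.40. Over all alternatives it ran from 0.0182 to 0.996, and it was 0.985 without the 2 Ts1Rhr hearts labelled with heart defects, where the log2 difference was 0.25. In Dp3Tyb the adjusted p ran from 0.138 to 1 over the alternatives.

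**Figure D2:**
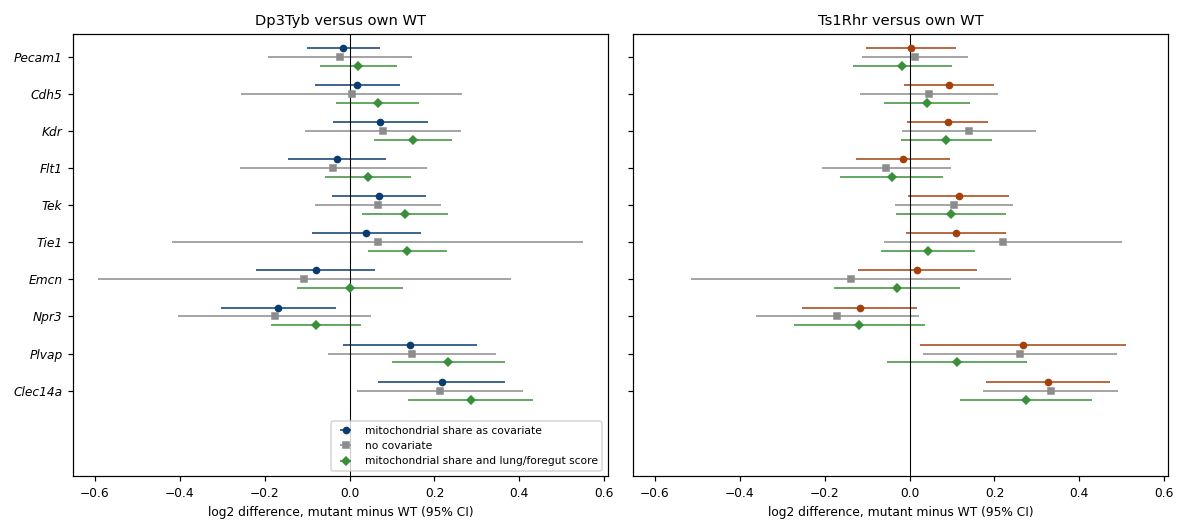
Log2 difference of mutant minus WT (horizontal axes) for each gene in Dp3Tyb (left) and Ts1Rhr (right), with 95% confidence intervals, for 3 fits. Circles have the mitochondrial share as covariate, squares no covariate, and diamonds both the share and the lung and foregut score. Without a covariate the intervals of Tie1 and Emcn are widest, and Clec14a lies farthest right in the fits with the share.

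The strains were not shown to differ in any of the 10 genes. In an interaction contrast over all 20 hearts, limma's adjusted p was under 0.05 for 0 of 10 genes, where 0.0195% of 15348 genes passed, and at an unadjusted p under 0.05 there were 0 of 10, where 3.56% of all genes passed. DESeq2 and edgeR also called 0. The difference of differences (Dp3Tyb effect minus Ts1Rhr effect) was negative for all 10 genes, from -0.13 for Clec14a to -0.023 for Flt1, with a median of -0.050. Leaving out 1 heart, the median ran from -0.091 (without Dp3Tyb replicate 1) to -0.016 (without Dp3Tyb replicate 4, with 8 of 10 negative), and it also moved by over 1.5 times without WT of Ts1Rhr replicate 1 (-0.033), 2 (-0.077) or 3 (-0.081). With the hearts of over 10% mitochondrial reads left out, the median was -0.0075 and 6 of 10 were negative. With the lung and foregut score in the fit it was positive for all 10, with a median of 0.045. Without the 5 hearts of low score it was positive for 9 of 10, all but Emcn, with a median of 0.050, and limma called 0 of 10 (0% of all genes, and 0 of 10 against 2.19% at an unadjusted p under 0.05). The lung markers themselves lay in opposite directions in the cohorts, with a median log2 difference of 1.84 in Dp3Tyb (10 of 11 tested higher) and -1.63 in Ts1Rhr (10 of 11 lower), and none called. Summed over the list they ran from 367 to 998 normalised values in WT of Dp3Tyb, 446 to 1194 in Dp3Tyb, 623 to 1112 in WT of Ts1Rhr and 433 to 919 in Ts1Rhr.

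The level of most of the 10 genes varied with the mitochondrial share of the library. The slope was estimated in limma over all 20 hearts within the 4 groups, as a log2 change per percentage point. WT of Dp3Tyb replicate 5 had the fewest reads (6.60 M) and the highest share (19.5%). WT of Ts1Rhr replicate 4 was next in both, at 9.50 M and 17.2%, while WT of Dp3Tyb replicate 1, with 12.2 M reads, had the lowest share (4.85%). The part of read depth in the slopes was not tested. The slope passed the threshold for 7 of 10 genes, as it did for 61.4% of 15348 genes, so that the share of the set is near the background. Of the 7 genes 5 rose with the share and 2 fell (29.7% and 31.7% of all genes). Emcn rose by 0.072 ± 0.0054 log2 units per point (adjusted p = 5.8e-11), and Tie1 fell, with a slope of -0.065 ± 0.0050 (adjusted p = 9.4e-11). Over 10 points the fitted fold was 1.65 for Emcn and 0.638 for Tie1. The slope of Emcn was at the 95.5 percentile of all genes and that of Tie1 at the 8.1 percentile.

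The other members lay between these. Cdh5 rose with a slope of 0.030 ± 0.0039, Npr3 with 0.025 ± 0.0053, Flt1 with 0.023 ± 0.0043 and Pecam1 with 0.010 ± 0.0042 (adjusted p = 0.0383). Kdr fell, with a slope of -0.020 ± 0.0039. The VEGF receptors Kdr and Flt1 thus passed the test in opposite directions, as did the endocardial Emcn and the angiopoietin-pathway receptor Tie1. Tek (0.0061 ± 0.0043), Plvap (-0.0060 ± 0.0080) and Clec14a (0.0060 ± 0.0059) did not pass. In the Dp3Tyb cohort alone 7 genes passed (57.8% of all genes), in the 15 hearts outside the low cluster of the lung and foregut score 6 (51.1%), where Pecam1 was not called, and in the Ts1Rhr cohort alone 6 (38%), where the slope of Pecam1 was -0.0051 and not called. Pecam1 also lost its call without WT of Dp3Tyb replicate 5 (0.0045, adjusted p = 0.516), WT of Dp3Tyb replicate 1 (adjusted p = 0.0619) or 3 (0.0528), Dp3Tyb replicate 4 (0.0520) or 5 (0.158), and Ts1Rhr replicate 1 (0.0518) or 2 (0.0584).

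**Figure D3:**
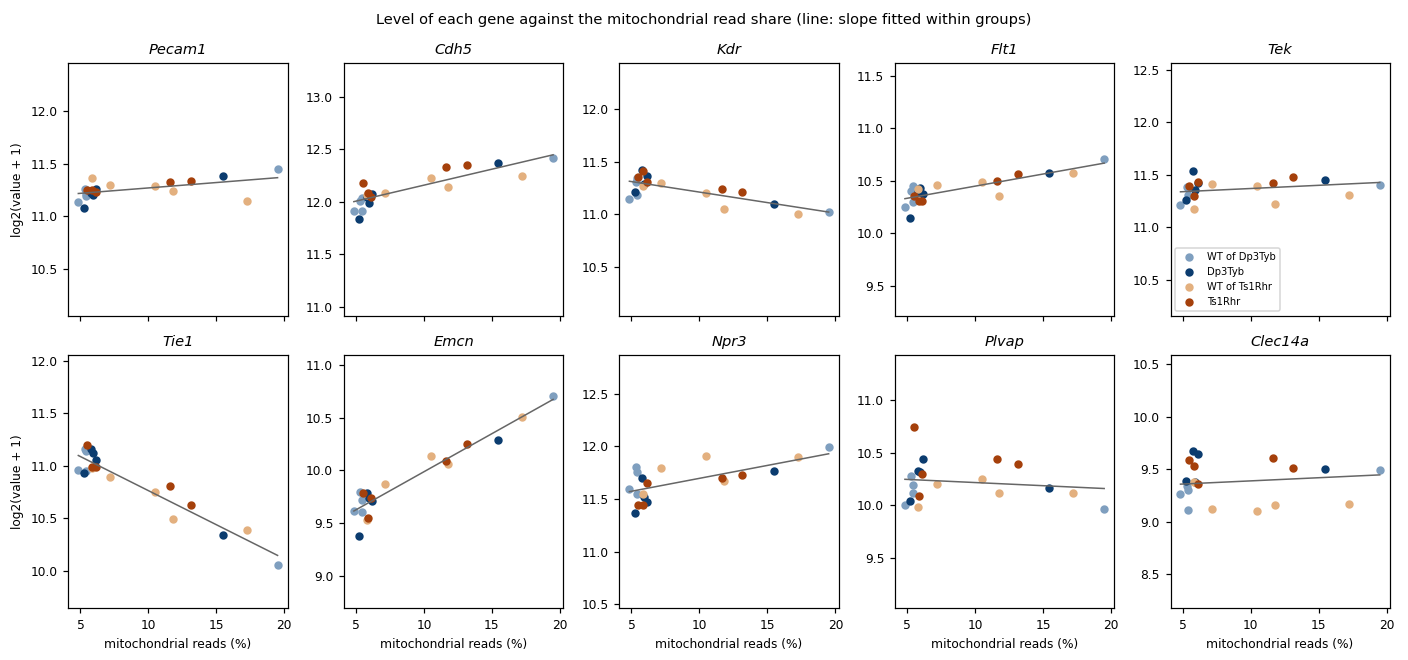
Level of each gene as log2(value + 1) (vertical axes, each spanning the same log2 range) against the mitochondrial share in percent (horizontal axes), with 1 point per heart coloured by group. The line has the slope fitted within groups. Emcn and Tie1 show the steepest lines, in opposite directions.

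The GC content of the canonical transcript moved with this slope. Across 15217 genes, which are not independent replicates, Spearman's rho of slope and GC content was -0.463, and that of slope and transcript length was 0.059. The median slope was 0.023 in the 1575 genes of under 42% GC and -0.038 in the 1537 genes of at least 58%. Emcn has 41.6% GC and Tie1 58.1%. Plvap, with 60.5% GC, and Clec14a, with 44.6%, had slopes near 0. The part of GC content in the slopes was not tested.

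All 10 genes had negative slopes on the lung and foregut score, in a comparison chosen after the values were seen. The slope was fitted in limma over 20 hearts, with group means and mitochondrial share in the fit, and its median was -0.040 log2 units per unit of score (all genes -0.0034). It passed for 3, Plvap (-0.082 ± 0.022, adjusted p = 0.0168), Tie1 (-0.054 ± 0.014, adjusted p = 0.0119) and Cdh5 (-0.040 ± 0.012, adjusted p = 0.0248), where 4.91% of 15348 genes passed in that direction and 11.6% in either. Without Ts1Rhr replicate 3 the adjusted p was 0.112 for Plvap and 0.0550 for Cdh5, which was at 0.0539 without Dp3Tyb replicate 4. Emcn passed without WT of Ts1Rhr replicate 5 (0.0299), Flt1 without Ts1Rhr replicate 2 (0.0335) or 3 (0.0451), and Kdr without Ts1Rhr replicate 3 (0.0454) or 5 (0.0358). The hearts form 2 clusters on this score. Among the 15 hearts outside the low cluster the slope was again negative for 10 of 10, with a median of -0.12, and 0 were called, where 1.27% of all genes were. At an unadjusted p under 0.05 there were 9 of 10, and 12.5% of all genes. Without the mitochondrial term it was negative for 10 of 10 and called for 0 (3.88% of all genes). Each cohort alone gave 1 called gene and 10 of 10 negative, where 3.63% (Dp3Tyb cohort) and 4.06% (Ts1Rhr cohort) of all genes passed.

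Several other lists moved with the same score. Of all genes 6.68% were called higher with it and 4.91% lower. Of 14 cardiomyocyte genes all had negative slopes and 12 fell, of 11 macrophage genes all had positive slopes and 6 rose, and of 12 mesenchyme and fibroblast genes 10 were positive with 6 called higher and 1 lower. Among 21 other pan-endothelial genes 18 slopes were negative and 9 were called lower. Among 9 other endocardial genes 7 were negative and 3 were called lower. The further endothelial lists were more mixed. Of 7 VEGF and angiopoietin ligands 5 were negative, with 2 called higher and 0 lower. Of 8 co-receptors and binding partners 5 were negative, with 1 called higher and 2 lower. Of 16 endothelial transcription factors 11 were negative and 1 was called lower. Of 10 coronary and tip cell genes 7 were negative and 2 were called lower. Among 11 erythroid genes all were negative with none called. Of 8 smooth muscle and pericyte genes 5 were positive, with 2 called higher and 1 lower. Of 9 epicardial genes 5 were positive and 4 negative, and of 8 platelet genes 5 were positive, with none called in either list. The part of tissue composition in these slopes was not tested.

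Co-variation among the 10 genes depended on the same covariate. Over the residuals of 20 hearts from their group means, which share libraries and depth, Pearson's r was positive for 33 of 45 pairs and ran from -0.84 to 0.93. Once the mitochondrial share was removed as well, r was positive for 45 of 45 pairs, with a median of 0.55 and a range of 0.043 to 0.85. The genes most alike to the mean of the 10 on this measure were Wipf3 (r = 0.907), Smyd1 (0.906), Cx3cl1 (0.902), Myom1 (0.902), Gfm1 (0.901), Gpr182 (0.900), Rps6ka2 (0.898), Ccdc141 (0.893), Gbe1 (0.888) and Txndc12 (0.886). Smyd1 and Myom1 are muscle genes, and Gpr182 is expressed by endothelium. By list, the median r with the set mean was 0.74 for cardiomyocyte genes, 0.49 for other pan-endothelial genes, -0.54 for macrophage genes and -0.75 for lung and foregut markers, with 0.041 over all genes. The median r was 0.35 for other endocardial genes, 0.26 for endothelial transcription factors and 0.21 for VEGF and angiopoietin ligands. For co-receptors and binding partners it was 0.10, and for coronary and tip cell genes -0.11.

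**Figure D4:**
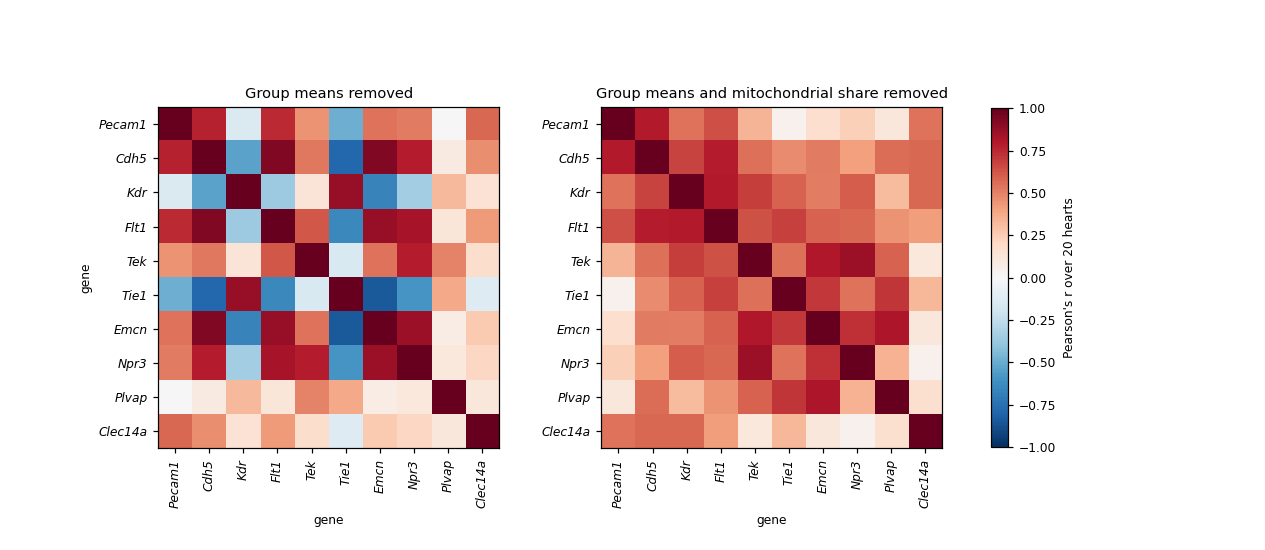
Pearson's r between each pair of the 10 genes over 20 hearts (colour, from -1 to 1), after group means were removed (left) and after the mitochondrial share was removed as well (right). Tie1 and Kdr are negative with Emcn on the left, and every pair is positive on the right.

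Among the other genes of the endothelial programme, few passed the test. Of the 7 ligands of the VEGF and angiopoietin families none was called in either strain by limma, DESeq2 or edgeR. At an unadjusted limma p under 0.05 there were 1 in Dp3Tyb and 0 in Ts1Rhr (11% and 7.53% of all genes). The largest differences were those of Vegfd (0.57 ± 0.28 in Dp3Tyb and -0.17 ± 0.29 in Ts1Rhr) and Pgf (0.26 ± 0.12 and -0.23 ± 0.16). In Dp3Tyb, where limma called 0.305% of all genes in either direction, 1 of 8 co-receptors and binding partners rose. This was Npr1, the guanylyl cyclase receptor of atrial natriuretic peptide, at 303 ± 69.1 normalised values in WT and 377 ± 58.03 in Dp3Tyb (SD, n = 5), with a log2 difference of 0.31 ± 0.059 (limma adjusted p = 0.0362). Its ranges overlapped (182 to 355 and 284 to 432). In Ts1Rhr none of the 8 was called by limma, DESeq2 or edgeR, while 4 were higher at an unadjusted limma p under 0.05 (7.53% of all genes in either direction), namely Npr1, Flt4, Nrp1 and Mmrn2, the latter pair named after their values were seen. The Npr1 difference there was 0.25 ± 0.084 (adjusted p = 0.513), and the strains were not shown to differ (0.044 ± 0.10). Nrp2, a VEGF co-receptor, had a difference of 0.23 ± 0.21 in Dp3Tyb, and Flt4, the receptor of VEGF-C, one of 0.16 ± 0.056 in Ts1Rhr (adjusted p = 0.557).

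Of 17 endothelial transcription factors 16 were tested. In Dp3Tyb limma called Ets2 and Erg (0.305% of all genes), and in Ts1Rhr Ets2 (0.168%). Both factors lie in the duplicated segment of either strain. Ets2 ranged from 1577 to 1872 in WT of Dp3Tyb and from 2398 to 2704 in Dp3Tyb, without overlap, and rose by 0.53 ± 0.046 log2 units (adjusted p = 2.9e-05). It ranged from 1642 to 2153 in WT of Ts1Rhr and from 2343 to 2602 in Ts1Rhr and rose by 0.48 ± 0.066 (adjusted p = 0.0038). Erg, at 525 ± 180 in WT of Dp3Tyb and 668 ± 199 in Dp3Tyb, rose by 0.39 ± 0.073 at equal mitochondrial share (adjusted p = 0.0397), and its difference in Ts1Rhr was 0.35 ± 0.066 (adjusted p = 0.0553). Its slope on the mitochondrial share was 0.070 ± 0.0057. At an unadjusted limma p under 0.05 there were 3 of 16 factors in Dp3Tyb, Ets2 and Erg higher and Gata2 lower (-0.22 ± 0.084), and 4 in Ts1Rhr, all higher, which were Ets2, Erg and, named like Gata2 after their values were seen, Lmo2 (0.22 ± 0.081) and Klf4 (0.19 ± 0.080). Of all genes 11% and 7.53% passed at that p. The differences between strains for Ets2 (0.038 ± 0.081) and Erg (0.038 ± 0.099) did not pass.

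Of 21 other pan-endothelial genes 15 were higher and 6 lower in Dp3Tyb. There 5 had an unadjusted limma p under 0.05, 4 of them higher and 1 lower (11% of all genes). The 1 called (0.305% of all genes) was Vwf, the von Willebrand factor that endothelium and platelets store. It stood at 926 ± 258 in WT and 1191 ± 249 in Dp3Tyb and rose by 0.36 ± 0.061 at equal share (adjusted p = 0.0197). In Ts1Rhr 19 of the 21 were higher, 5 had an unadjusted limma p under 0.05 (7.53% of all genes), and none was called by limma, DESeq2 or edgeR. Vwf differed there by 0.28 ± 0.075 (adjusted p = 0.348) and between strains by 0.086 ± 0.099. Of 8 tested platelet genes 3 were higher in Dp3Tyb and 5 in Ts1Rhr with none called by limma, DESeq2 or edgeR (1 and 0 at an unadjusted limma p under 0.05), and summed over the list of 9 they ran from 223 to 676 in WT of Dp3Tyb and from 282 to 361 in Dp3Tyb. Esam, an adhesion molecule, differed by -0.20 ± 0.085 in Dp3Tyb, and Arhgef15 by 0.25 ± 0.081 in Ts1Rhr (adjusted p = 0.496).

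The calls of Npr1, Erg and Vwf in Dp3Tyb were close to the threshold. Leaving out 1 heart at a time, Npr1 lost its call in 8 of 10 cases, all but those without WT replicate 1 or Dp3Tyb replicate 1, with log2 differences of 0.29 to 0.34 and adjusted p of 0.0429 to 0.196. Erg lost it in 9 of 10, all but that without WT replicate 1, at 0.34 to 0.46 (adjusted p 0.0014 to 0.308), and Vwf in 7 of 10, all but those without WT replicate 1 or 3 or Dp3Tyb replicate 2, at 0.33 to 0.42 (adjusted p 9.5e-04 to 0.121). Without the mitochondrial term the adjusted p was 1 for all 3, and without the hearts of low lung and foregut score all 3 lost the call (0.967), at log2 differences of 0.28, 0.23 and 0.31. Of 14 alternatives that are not the removal of 1 heart, 6 ended the call of Npr1, 6 that of Erg and 5 that of Vwf. Among them were the lung and foregut score as covariate (0.114, 0.101 and 0.0612) and the removal of hearts of over 10% mitochondrial reads (0.278, 0.114 and 0.167). Erg in Ts1Rhr passed without WT replicate 1 (0.0312) or without Ts1Rhr replicate 3 (0.0165), and in 5 other alternatives, DESeq2 among them (0.0030). The Ets2 call in Dp3Tyb held in all alternatives, and that in Ts1Rhr was lost without the mitochondrial term (0.0739), without libraries of over 10% mitochondrial reads (0.996) and without the 2 hearts labelled with defects (0.549).

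None of the 9 other endocardial genes was called in either strain by limma, DESeq2 or edgeR, with 3 higher in Dp3Tyb and 6 in Ts1Rhr. At an unadjusted limma p under 0.05 there were 3 and 1, where 11% and 7.53% of all genes passed. Tmem100, an endothelial target of BMP signalling, had log2 differences of -0.31 ± 0.092 and -0.32 ± 0.13 (adjusted p = 0.251 and 0.625). Cytl1 differed by 0.37 ± 0.24 in Dp3Tyb. Nrg1, the endocardial ligand that drives trabeculation, differed by 0.35 ± 0.20 in Ts1Rhr, and Hapln1, a matrix link protein, by 0.34 ± 0.22. Of the 10 coronary and tip cell genes 1 and 0 had an unadjusted limma p under 0.05, against the same shares of all genes. None of the 10 was called by limma, DESeq2 or edgeR, with 8 of them lower in Dp3Tyb and 7 lower in Ts1Rhr. Among them Cxcr4, the receptor of Cxcl12, differed by -0.27 ± 0.12 and Apln, the ligand apelin, by -0.22 ± 0.13 in Dp3Tyb, and Esm1 by -0.38 ± 0.26 and Sema3g by -0.23 ± 0.15 in Ts1Rhr.

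**Figure D5:**
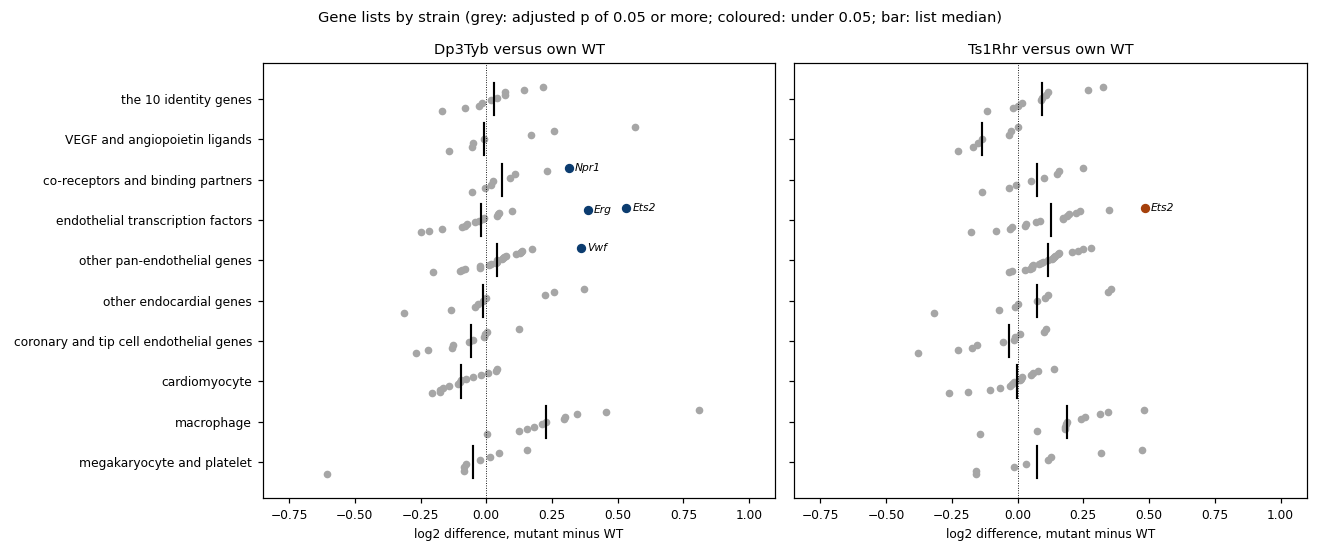
Log2 difference of mutant minus WT at equal mitochondrial share (horizontal axes) for each gene of 10 lists in Dp3Tyb (left) and Ts1Rhr (right). Points are genes, coloured and named where limma's adjusted p was under 0.05, and bars are list medians. Npr1, Erg, Ets2 and Vwf are named in Dp3Tyb and Ets2 in Ts1Rhr.

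Markers of other cell types were compared in the same fits, and limma called none in either strain. Macrophage genes had a median log2 difference of 0.23 in Dp3Tyb, with 11 of 11 higher, and 0.19 in Ts1Rhr, with 10 of 11 higher, and 5 in each strain had an unadjusted limma p under 0.05. DESeq2 called 1 of them in Dp3Tyb, Lyve1. Their summed level ran from 1395 to 2303 in WT of Dp3Tyb, 2019 to 2430 in Dp3Tyb, 1684 to 1969 in WT of Ts1Rhr and 1732 to 2632 in Ts1Rhr. Mesenchyme and fibroblast genes had medians of 0.16 in Dp3Tyb, with 11 of 12 higher, and 0.042 in Ts1Rhr, with 10 of 12 higher, and 4 in each strain, all higher, had an unadjusted limma p under 0.05. Cardiomyocyte genes had medians of -0.096 in Dp3Tyb, with 11 of 14 lower and 2 at an unadjusted limma p under 0.05, and -0.0011 in Ts1Rhr, with 7 of 14 lower and 1 at that p. The shares of all genes at that p were 11% and 7.53%. The medians in Dp3Tyb and Ts1Rhr were -0.061 and 0.021 for smooth muscle and pericyte genes, 0.027 and 0.059 for epicardial genes and 0.13 and 0.17 for erythroid genes. Of 8 liver genes 2 passed the filter, with medians of 0.47 and 0.24. No marker of these lists was at 0 in every heart of the series. Whether any was at 0 throughout a single group was not tested. Their part in the values of the endothelial genes was not tested.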

How the data were processed

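Total RNA of whole E13.5 hearts (Qiagen RNeasy) was made into KAPA mRNA HyperPrep libraries and sequenced on an Illumina HiSeq, as the study states. The submitters' processing notes name Trimmomatic 0.36, STAR 2.5.2a, RSEM 1.2.31, DESeq2 and the GRCm38 build, with no roles. The authors deposited 1 table of normalised counts, a signal of reads divided by a library factor, scaled over all 20 libraries together. In every library 100% of the values above 0 were whole multiples of 1 step (relative tolerance 1e-06), so whole reads were recovered. The steps matched size factors computed from these reads by the median of ratios. Strand use in counting is not given in the sources used here.

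Groups came from the genotype labels. The control labels carry an initial of the strain, which was read as its littermates. Replicate numbers follow the order of listing and only name a library. Nothing says that hearts came from separate litters, so p-values measure the spread between these hearts.

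The main test was limma 3.58.1 (R 4.3.3; trended, robust prior, 2-sided, Benjamini-Hochberg over all genes, threshold 0.05) on log2(value + 1), with the mitochondrial share in percent as a linear term. A gene was tested if 5 or more of the fitted libraries had a value of 10 or higher, which held for all 10 identity genes. Fold changes on this scale are understated for low genes. DESeq2 1.42.0 and edgeR 4.0.16 on the recovered reads, other covariates, filters, pseudocounts, scalings and libraries were alternatives. Intervals cover the spread between hearts, and reads are PCR products without molecular identifiers. On simulated counts, limma recovered 76% of 1.5-fold changes and 100% of 2-fold changes in each strain (14881 and 14840 genes), and 20% and 96% between strains (15327 genes). The simulation set the spread by 1 rule for all genes and held no slope on the mitochondrial share. Its rates are therefore not those of the 10 genes.

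Members and gene lists were chosen with earlier results of these data known. All 10 members are named in the text. From each other endothelial list the text names called genes and the 2 largest differences per strain. Symbols and transcript lengths came from GENCODE vM39 and matched 91.3% of identifiers. Promoters were RefSeq (GRCm38.p6).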

Additional observations from a re-analysis of the deposited data

Results flagged for a closer look

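In groups of 5 hearts, Dixon's test singled out 1 heart for 8 of 56 pairs of gene and group, where chance gives about 1 in 20. WT of Dp3Tyb replicate 5, the library with the fewest reads and the highest mitochondrial share, stood apart from the other 4 for Cdh5 (5461 normalised values, high), Tie1 (1066, low), Emcn (1665, high), Npr1 (182, low) and Erg (837, high). Dp3Tyb replicate 5 stood apart for Erg (1018, high). WT of Ts1Rhr replicate 5 stood apart for Clec14a (665, high) and Ets2 (2153, high). Without that heart the Clec14a difference in Ts1Rhr was called (log2 0.40, limma adjusted p = 0.0281).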

How the results depend on the processing

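No paired analysis was made, because the labels pair no hearts and the replicate numbers only follow the order of listing. WT and mutant samples alternate in that order, and a fit with neighbours as pairs was not run. With 5 hearts a group, small changes of the 10 genes could go undetected. The 76% of 1.5-fold changes recovered in simulation within a strain is not a rate for these genes, since the simulated spread was not taken from them. Where a value turned in direction below, the cause was not tested. The count of identity genes called was 0 in Dp3Tyb in all alternatives. In Ts1Rhr it was 1 (Clec14a) with array weights, DESeq2, and DESeq2 without the mitochondrial term, and 0 to 1 when 1 heart was left out (1 without WT of Ts1Rhr replicate 5). It was 0 between strains, and 6 to 7 for the slope on mitochondrial share. The count for the slope on the lung and foregut score was 0 without the mitochondrial term, 1 in either cohort alone and 0 without the libraries of low score, where the median was -0.12.

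Adding the lung and foregut score turned the log2 difference in Dp3Tyb for Pecam1 to 0.020, Flt1 to 0.044, Emcn to 0.0012 and Nrp2 to -0.041, in Ts1Rhr for Pecam1 to -0.017, Emcn to -0.030 and Vegfd to 0.26, and between strains for Pecam1 to 0.027, Cdh5 to 0.020, Kdr to 0.068, Flt1 to 0.089, Tek to 0.039, Tie1 to 0.11, Emcn to 0.039, Npr3 to 0.051, Plvap to 0.13, Clec14a to 0.0071, Npr1 to -0.018, Erg to -0.10 and Vwf to -0.0069. Without the 5 hearts of low score, also chosen after the data were seen, the difference in Dp3Tyb turned for Pecam1 to 0.011, Flt1 to 0.040 and both Vegfd and Nrp2 to -0.11, in Ts1Rhr for Pecam1 to -0.011, Emcn to -0.0039 and Vegfd to 0.22, and between strains for Pecam1 to 0.042, Cdh5 to 0.0032, Kdr to 0.086, Flt1 to 0.077, Tek to 0.011, Tie1 to 0.086, Npr3 to 0.030, Plvap to 0.058, Clec14a to 0.060, Erg to -0.15 and Vwf to -0.060, and the slope on mitochondrial share turned for Plvap (0.0035) and Clec14a (-0.0032). Without the mitochondrial term, limma and DESeq2 turned Emcn in Ts1Rhr to -0.14 and -0.15, and between strains Flt1 to 0.016 and 0.017, Emcn to 0.031 and 0.012, Npr1 to -0.061 and -0.078 and Vwf to -0.038 and -0.047. The log2 of the share turned Cdh5 in Dp3Tyb to -0.0059, and Tie1 (0.0071) and Erg (-0.020) between strains. Array weights turned Emcn (-0.026) and Vegfd (0.034) in Ts1Rhr and Ets2 (-0.0030) between strains. Without libraries of over 10% mitochondrial reads, Pecam1 (-0.087) and Emcn (-0.0084) turned in Ts1Rhr, and Pecam1 (0.078), Kdr (0.0050), Flt1 (0.10), Clec14a (0.022) and Npr1 (-0.0079) between strains. Without the 2 Ts1Rhr hearts labelled with defects, Pecam1 turned in Ts1Rhr (-0.11) and Flt1 between strains (0.0062). In the Ts1Rhr cohort alone the slope on mitochondrial share turned for Pecam1 (-0.0051), Plvap (0.0035) and Clec14a (-0.0032).

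Leaving out 1 heart moved values across 0 as follows. In Dp3Tyb, Pecam1 ran from -0.030 to 0.011, Cdh5 from -0.0071 to 0.055 and Flt1 from -0.053 to 0.014. In Ts1Rhr, Pecam1 ran from -0.034 to 0.033, Flt1 from -0.046 to 0.0061, Emcn from -0.042 to 0.053 and Vegfd from -0.35 to 0.034. Between strains, Kdr ran from -0.056 to 0.0033, Flt1 from -0.046 to 0.025, Npr1 from -0.011 to 0.10, Erg from -0.0041 to 0.10 and Ets2 from -0.036 to 0.067. The slope of Clec14a on mitochondrial share ran from -0.0022 to 0.0097. Within strains, other differences that were not called kept their sign but moved by over 1.5 times. In Dp3Tyb, Kdr stood at 0.042 and Tie1 at 0.0071 without WT replicate 1, Tek at 0.033 and Apln at -0.12 without Dp3Tyb replicate 1, Emcn at -0.022, Nrp2 at 0.10 and Cytl1 at 0.25 without Dp3Tyb replicate 4, and Esam at -0.073 without WT replicate 5 (and at -0.016 without the 5 hearts of low score). In Ts1Rhr, Tek stood at 0.074, Nrg1 at 0.084, Hapln1 at 0.11, Sema3g at -0.058 and Pgf at -0.099 without WT replicate 5, Npr3 at -0.077 without WT replicate 3, and Esm1 at -0.17 without Ts1Rhr replicate 2.

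Counts over all genes moved as well. The 45 genes called in Dp3Tyb became 8 without the mitochondrial term, 30 without libraries of over 10% mitochondrial reads, 16 without those of low lung and foregut score, 88 with DESeq2 and 27 to 55 with 1 heart left out. The 25 in Ts1Rhr became 4 without the term, 0 without those libraries (also 4 without the 2 hearts labelled with defects), 49 with array weights, 43 with DESeq2 and 13 to 26 with 1 heart left out. The 9422 genes with a slope on mitochondrial share became 5646 in the Ts1Rhr cohort alone, and the 1779 with a slope on the lung and foregut score became 596 without the mitochondrial term, 193 without the low libraries, and 536 and 604 within the Dp3Tyb and Ts1Rhr cohorts.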
